A study of Homo sapiens with 16 samples.

Results

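NKX2-5 RNA was high in 3 of 16 human lines of T-ALL, the acute leukemia of T-cell precursors: CCRF-CEM, MOLT-16 and PEER. They were set against the other 13 lines: ALL-SIL, DU528, HSB-2, JURKAT, KOPT-K1, LOUCY, MOLT-4, P12-ICHIKAWA, PF-382, SKW-3, SUP-T11, SUP-T13 and TALL-1. All lines were untreated, were seeded at the same density and were harvested after 24 hours, and the total RNA of each was measured on 1 Affymetrix U133 Plus 2.0 array. The lines were chosen by their intensity on the array's NKX2-5 probe set, with those above 500 on the high side. On the deposited linear scale CCRF-CEM read 1300.2, PEER 1054 and MOLT-16 787 for this gene. In the other lines it ran from 1 in P12-ICHIKAWA through a median of 10.7 to 18.0 in SUP-T13. MOLT-16 was therefore the nearest line above the threshold and SUP-T13 the nearest below it, and no line lay between 18.0 and 787. These values chose the groups and carry no test.

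NKX2-5 is a homeodomain transcription factor of the heart lineage, where it acts with GATA, T-box and MEF2 factors on genes of heart muscle. T cells normally do not express it. In a subset of T-ALL the translocation t(5;14) joins the NKX2-5 region of chromosome 5 to the region beyond BCL11B on chromosome 14, which holds an enhancer active in T cells, and CCRF-CEM and PEER are known carriers of it. The homeodomain of the NKX2 class recognises DNA with the core letters AAGTG, and many members recruit corepressors of the Groucho (TLE) family.

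Each line is an established culture from the leukemia of 1 patient, measured once, so the line is the replicate and every p-value measures the spread between lines. CCRF-CEM, MOLT-16 and PEER differ from the rest in much besides NKX2-5, and such differences cannot be told apart from it. TAL1, another T-ALL factor, was high in CCRF-CEM (813) and MOLT-16 (425) and low in PEER (24.8), and was high in 8 of the 16 lines in all. CD3D, a chain of the T-cell receptor complex, was present in all 3 lines. It read 14179 in CCRF-CEM, 7095 in MOLT-16 and 12202 in PEER, against 9892 to 14041 in the others. MOLT-16 thus had the lowest CD3D of all lines. Other genes of the complex, among them CD3E, LCK and CD247, also read lower in MOLT-16 than in CCRF-CEM and PEER, as given below. It also had the lowest array median (37.6, against up to 45.0) and the lowest upper quartile (247.8, against up to 308). The 3' to 5' ratio of the ACTB control probe sets, a sign of RNA integrity, was 1.63 in CCRF-CEM, 1.90 in MOLT-16 and 1.503 in PEER, within the range of 1.44 to 2.03 in the others. In alternative fits the ACTB ratio was taken as a covariate, and quantile normalization set the arrays to the same median and quartiles.

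Of 13293 genes tested, few separated the NKX2-5-expressing lines from the rest beyond the spread between lines. Their mean log2(intensity + 16) was compared by limma with p-values adjusted after Benjamini and Hochberg, and a gene was called at an adjusted p below 0.05. In this fit 3 genes were higher (0.0226% of those tested): COBLL1, DACH1 and CHRM3. A further 5 were lower (0.0376%): GPD1L, USP3, CERS6, PC and ATP11A. Genes were tested where their 3rd highest line exceeded 42.4, and DACH1 and CHRM3 met this only through the 3 NKX2-5-expressing lines. That filter thus favours genes high in a group of 3. With a filter on the mean over all lines 1 gene was called higher. The median difference over all genes tested was 0.01. At an unadjusted p below 0.05 there were 414 higher (3.11%) and 462 lower genes (3.48%). An exact two-sided permutation test over all 560 choices of 3 lines, whose smallest possible p is 0.00179, called 0 genes after adjustment, since its smallest adjusted p was 0.50, and gave 408 higher and 456 lower genes at an unadjusted p below 0.05. The 8 genes called by limma all stood at that smallest exact p, as did 47 genes in total. With 13293 genes adjusted for, this test could call no single gene by itself, however well separated. The counts depended on single lines. Without CCRF-CEM there were 11 higher and 6 lower calls, without MOLT-16 8 and 2, and without PEER 6 and 10. Without LOUCY, a line of early T-progenitor type, there were 11 and 16. The higher count was 5 without MOLT-4, P12-ICHIKAWA or PF-382 and 6 without SUP-T11, and the lower count was 3 without DU528, JURKAT, MOLT-4 or SUP-T13. With quantile normalization, 5 genes were called higher and 7 lower.

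**Figure D1:**
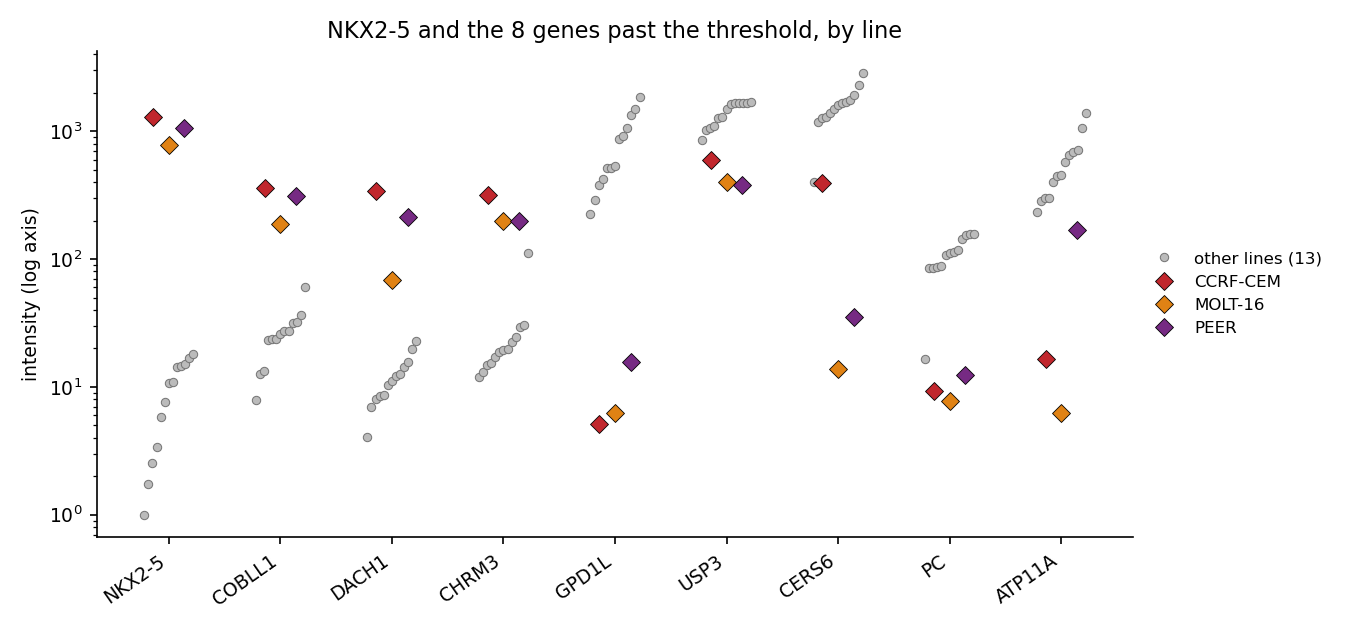
Intensity (log axis) of NKX2-5 and the 8 genes past the threshold in each line; diamonds are CCRF-CEM, MOLT-16 and PEER, and grey points are the 13 other lines in ascending order. In each of the 8 genes the diamonds lie wholly above or wholly below the grey points, with CCRF-CEM (397) next to ALL-SIL (401) for CERS6.

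The RefSeq promoters of the 3 higher genes are shown because NKX2-5 binds DNA and its core letters can be looked for there. Each run gives the 250 bases before a RefSeq start in build GRCh38.p14, 5' to 3' on the gene's strand, with any match to AAGTG on either strand (AAGTG or CACTT) in capitals. The COBLL1 window, of its start at chr2:164841824-164842073 on the minus strand, is that of 3 RefSeq starts which holds a match. The DACH1 window is chr13:71867205-71867454 on the minus strand, and the CHRM3 window is chr1:239386318-239386567 on the plus strand.
COBLL1: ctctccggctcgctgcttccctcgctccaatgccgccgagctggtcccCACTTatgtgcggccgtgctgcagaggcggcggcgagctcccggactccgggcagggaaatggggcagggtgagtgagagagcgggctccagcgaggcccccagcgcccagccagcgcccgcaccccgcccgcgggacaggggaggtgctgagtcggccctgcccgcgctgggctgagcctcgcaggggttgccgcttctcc
DACH1: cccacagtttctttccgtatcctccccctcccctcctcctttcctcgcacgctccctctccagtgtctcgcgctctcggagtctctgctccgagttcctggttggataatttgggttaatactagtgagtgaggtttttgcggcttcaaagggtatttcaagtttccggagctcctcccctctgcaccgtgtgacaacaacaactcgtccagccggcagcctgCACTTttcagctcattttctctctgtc
CHRM3: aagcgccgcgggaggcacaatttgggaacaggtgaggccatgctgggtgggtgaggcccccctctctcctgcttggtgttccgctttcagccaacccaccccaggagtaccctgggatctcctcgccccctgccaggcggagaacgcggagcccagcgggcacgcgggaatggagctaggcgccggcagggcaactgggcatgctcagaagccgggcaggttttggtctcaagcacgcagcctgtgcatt
COBLL1 and DACH1 each held 1 match in these windows, and CHRM3 held 0. All 8 called genes had a promoter entry, with 12 windows in all, of which 6 windows of 5 genes (COBLL1, DACH1, ATP11A, PC and USP3) held AAGTG. Over all 35116 RefSeq promoter windows of that length, 37.6% held it. The longer form TNAAGTG, which contains AAGTG, was in 0 of the 12 windows and in 8.73% of all. A match is a description of letters and not a binding site.

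COBLL1, an actin-binding protein of the cordon-bleu type, read 358 in CCRF-CEM, 189 in MOLT-16 and 313 in PEER. The other lines ran from 7.93 through a median of 25.9 to 60.8, in PF-382. The groups did not overlap, and even MOLT-16 lay well above PF-382. The log2 difference was 2.84 (SE 0.28, limma adjusted p = 0.00022), or 7.17-fold on the intensity + 16 scale, which understates the change of genes near background. DACH1, a transcriptional cofactor of the dachshund family, was 341 in CCRF-CEM, 68.5 in MOLT-16 and 215 in PEER, against 4.05 to 22.7 with a median of 11.2. All other lines were near background, and MOLT-16 was the lowest of the 3. The difference was 2.80 (SE 0.30, limma adjusted p = 0.000403). CHRM3, the muscarinic acetylcholine receptor M3, was 318 in CCRF-CEM, 199.9 in MOLT-16 and 198 in PEER, against a range of 11.95 to 112 and a median of 19.5. SKW-3 held the 112, and the next of the others, SUP-T13, was at 30.5. The difference was 2.67 (SE 0.34, limma adjusted p = 0.00198). Further probe sets of these genes bore the same order: the groups did not overlap in 3 of 3 for DACH1, 5 of 6 for CHRM3 and 3 of 5 for COBLL1.

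GPD1L, an enzyme related to glycerol-3-phosphate dehydrogenase, was near background in the NKX2-5-expressing lines, at 5.16 in CCRF-CEM, 6.27 in MOLT-16 and 15.7 in PEER. It was present in each of the others, from 227 in P12-ICHIKAWA through a median of 534 to 1849 in SUP-T13. No value of the 3 lines came near P12-ICHIKAWA. The difference was -4.79 (SE 0.52, limma adjusted p = 0.000414), the widest of the 8. USP3, a deubiquitinase of histone H2A, was lower but clearly present: 596 in CCRF-CEM, 401 in MOLT-16 and 382 in PEER, against 858 to 1683 with a median of 1493. Its log2 difference was -1.56 (SE 0.22, limma adjusted p = 0.00505), and both of its 2 probe sets separated the groups.

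CERS6, a ceramide synthase, was 13.8 in MOLT-16 and 35.2 in PEER, whereas CCRF-CEM still read 397. The other lines ran from 401 in ALL-SIL through a median of 1595 to 2863 in MOLT-4. CCRF-CEM therefore lay just beside ALL-SIL, and the groups were separated by the distance between these lines. The log2 difference of CERS6 was -4.13 (SE 0.59, limma adjusted p = 0.00685); of its 4 probe sets 2 separated the groups. Its call was lost without MOLT-16 and without PEER. The call of USP3 was lost without MOLT-16 and with the probe set of highest SD.

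ATP11A, a phospholipid flippase of the plasma membrane, was 16.4 in CCRF-CEM, 6.27 in MOLT-16 and 168 in PEER, against 232 to 1377 with a median of 452. PEER retained a clear signal. The log2 difference was -3.35 (SE 0.56, limma adjusted p = 0.0344), and 3 of 6 probe sets separated the groups. PC, the mitochondrial pyruvate carboxylase, was 9.28 in CCRF-CEM, 7.82 in MOLT-16 and 12.3 in PEER. In the others it ran from 16.6 in ALL-SIL through 111 to 157, so that it was dim in every line. The log2 difference was -2.19 (SE 0.36, limma adjusted p = 0.0344). Both calls sat close to the threshold. That of ATP11A was lost in 13 of 28 alternatives and that of PC in 14, each of CCRF-CEM, MOLT-16, DU528, JURKAT, MOLT-4, P12-ICHIKAWA, PF-382 and SUP-T13 ending both when left out. ALL-SIL also ended the call of ATP11A, and KOPT-K1, PEER, SKW-3 and TALL-1 that of PC. By contrast COBLL1, DACH1, CHRM3 and GPD1L lost their calls under the exact permutation test alone, which could call no single gene by itself. Their limma adjusted p-values were at most 0.0287 in every other alternative that tested them. DACH1 and CHRM3 were not tested under the filter on the mean over all lines, nor COBLL1 with the mean of all probe sets.

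**Figure D2:**
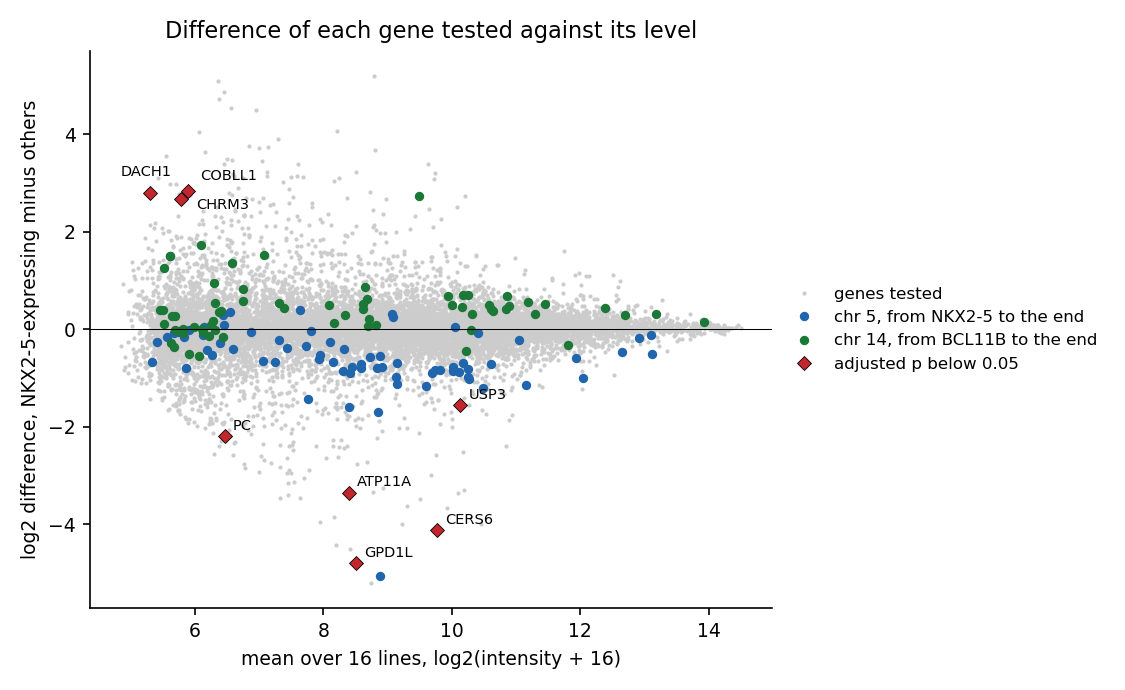
Log2 difference (NKX2-5-expressing lines minus the others) of each of the 13293 genes tested against its mean log2(intensity + 16) over the 16 lines; red diamonds are the called genes, blue the tested genes of chromosome 5 beyond NKX2-5 and green those of chromosome 14 beyond BCL11B. Many grey points differ by more than the called ones but vary more between lines; most blue points lie below 0 and most green points above it.

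Beyond the calls, the 3 lines lay above all 13 others in 38 genes (0.286% of those tested) and below them all in 37 genes (0.278%). MARCKS, an actin-binding substrate of protein kinase C, was 1828 in CCRF-CEM, 1574 in MOLT-16 and 999 in PEER, against a range of 2.53 to 536 with a median of 10.2. The groups did not overlap on any of its 5 probe sets. The difference was 5.08 (SE 0.93), and with a limma adjusted p of 0.0561 it missed the threshold. MARCKS passed it in 5 of 28 alternatives, with limma adjusted p-values of 0.00493 without PF-382, 0.0122 without SUP-T11, 0.00869 with the mean of all probe sets, 0.0219 with a pseudocount of 64 and 0.0434 with the probe set of highest SD. PF-382 (536), the highest of the others, also expressed it, so leaving it out widens the difference by construction. Without SUP-T11 the MARCKS difference widened likewise, from 5.08 to 5.36, so neither pass is separate support. BEX5, a small protein of the brain-expressed X-linked family, was 749.6 in CCRF-CEM, 2585 in MOLT-16 and 1239 in PEER, against 2.78 to 651 with a median of 6.88. Here JURKAT stood next to CCRF-CEM (difference 4.87, limma adjusted p = 0.0816).

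PTPRF, the receptor tyrosine phosphatase LAR, was 1036 in CCRF-CEM, 1519 in MOLT-16 and 1034 in PEER, against 28.8 to 621 with a median of 119 (difference 3.12, limma adjusted p = 0.0979). LOUCY held the 621. PIR, the nuclear protein pirin, was 742 in CCRF-CEM, 1310.5 in MOLT-16 and 623 in PEER, against 14.4 to 358 with a median of 116. MCAM, the adhesion molecule CD146, was 94.4 in CCRF-CEM, 155 in MOLT-16 and 367 in PEER, against 9.93 to 71.3. For MCAM the lowest of the 3 lines lay just above the highest of the others, TALL-1, and the limma adjusted p was 0.0561. MCAM passed the threshold in 7 of 28 alternatives and PTPRF and BEX5 in 2 each, among them PTPRF without LOUCY (0.0213) and BEX5 without JURKAT (0.0139). LOUCY and JURKAT were the highest of the others for these genes, so leaving them out widens the difference by construction.

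TSPAN7, a tetraspanin, was abundant throughout and yet highest in these lines, at 8466 in CCRF-CEM, 7325 in MOLT-16 and 9550 in PEER against 332 to 5613 with a median of 3921. ETV6, a repressor of the ETS family that is needed in blood stem cells, was 2083 in CCRF-CEM, 1783 in MOLT-16 and 3712 in PEER, against 28.6 to 1202 with a median of 857. The groups did not overlap in either gene. ETV6 had a difference of 1.72 with a limma adjusted p of 0.723, which fell to 0.0431 without SUP-T11, the line that read 28.6, where the difference was 1.39. Of the 5 ETV6 probe sets 1 separated the groups. CLEC11A, a growth factor of blood progenitors, and PAWR, a pro-apoptotic regulator, also lay above all others. CLEC11A was 3644 in CCRF-CEM, 3955 in MOLT-16 and 3035 in PEER against 10.99 to 2406, and PAWR was 961, 690.5 and 775 against 17.4 to 581.

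**Figure D3:**
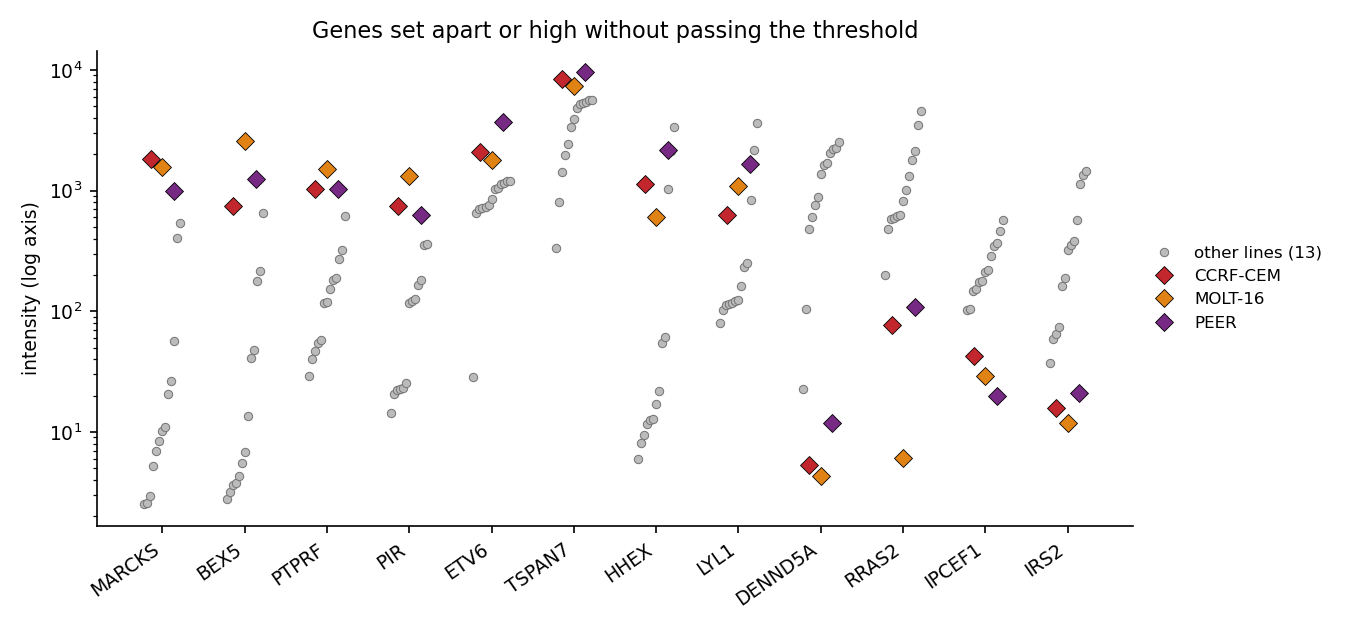
Intensity (log axis) of 12 genes that were not called, in each line; diamonds are CCRF-CEM, MOLT-16 and PEER and grey points the 13 other lines in ascending order. The diamonds lie above all grey points from MARCKS to TSPAN7 and below them all from DENND5A to IRS2, while for HHEX and LYL1 some grey points reach as high.

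Some regulators of transcription were high in all 3 lines and in a few others. TLE1, a Groucho corepressor, was 1444 in CCRF-CEM, 1359 in MOLT-16 and 419 in PEER, against 8.29 to 788 with a median of 52.0. LOUCY (788) lay above PEER, so the groups overlapped, and the log2 difference of 3.76 (SE 0.90) had a limma adjusted p of 0.219. ZNF423, a zinc finger factor that binds SMAD proteins in BMP signalling, was 2299 in CCRF-CEM, 693 in MOLT-16 and 1016 in PEER. Its median in the others was 13.6, and after PF-382 (1466) the next of them was LOUCY at 181 (difference 4.73, limma adjusted p = 0.0979). TLE1 passed the threshold without LOUCY (limma adjusted p = 0.0294) and ZNF423 without PF-382 (0.000365). In each case the line left out was the highest of the others. Leaving it out widens the difference by construction, so neither pass is support.

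On the lower side, RRAS2, a small GTPase of the R-Ras family, was 76.8 in CCRF-CEM, 6.11 in MOLT-16 and 109 in PEER, against 201 to 4583 with a median of 817. The 3 probe sets of RRAS2 all separated the groups, and the difference was -3.99 (SE 0.75, limma adjusted p = 0.0617). DENND5A, an exchange factor for Rab GTPases, was near background in CCRF-CEM (5.30), MOLT-16 (4.32) and PEER (11.8), against 22.6 to 2545 with a median of 1361 (difference -5.20, limma adjusted p = 0.0718). P12-ICHIKAWA (22.6) was also low, which places the edge of the groups close to background. IPCEF1, an interactor of cytohesin exchange factors, was 42.3 in CCRF-CEM, 28.9 in MOLT-16 and 19.8 in PEER against 102 to 571 (difference -2.40, limma adjusted p = 0.0548). IPCEF1 passed the threshold in 9 of 28 alternatives, DENND5A in 2, among them without P12-ICHIKAWA (limma adjusted p = 0.00389), and RRAS2 in 1, without LOUCY (0.0213). P12-ICHIKAWA was the lowest of the others for DENND5A and LOUCY for RRAS2 (difference -4.18 without it). Leaving out such a line widens the difference by construction.

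SMURF2, a ubiquitin ligase that acts on SMAD proteins and their receptors, was 481 in CCRF-CEM, 747 in MOLT-16 and 431 in PEER, against 922 to 3442 with a median of 1770 (difference -1.67, limma adjusted p = 0.167). IRS2, an adaptor of the insulin and IGF receptors, was 15.9 in CCRF-CEM, 11.9 in MOLT-16 and 21.1 in PEER against 36.9 to 1451. Neither gene's groups overlapped, and neither passed the threshold, though SMURF2 did with the probe set of highest SD (limma adjusted p = 0.0206).

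The genes that lie next to NKX2-5 on chromosome 5, from NKX2-5 towards the end of the long arm, read low together in the NKX2-5-expressing lines. This stretch was picked after its values were seen, so it is described here and not tested. Gene order was taken from RefSeq (GRCh38.p14), and the array files name no build. Of 73 tested genes from BOD1 to TRIM52-AS1, 64 (87.67%) had a difference below 0, and their median difference was -0.58 log2 units, against 0.01 over all genes tested. All 3 lines lay below the median of the others in 46 of the 73 genes, and above it in 0. In 34 genes (46.6%) the unadjusted p was below 0.05 in the lower direction, where 3.48% of all genes tested were, and in 0 in the higher direction. None of the 73 was called in this fit. Of its named genes, 5 passed the threshold without LOUCY: HIGD2A (limma adjusted p = 0.00724), FAF2 (0.00816), and HNRNPAB, MAML1 and BOD1 (0.0213 each). LOUCY was the lowest of the other lines in each of them, so leaving it out widens the difference by construction. Over 27 or 28 alternatives HIGD2A and HNRNPAB passed in 3, and FAF2, MAML1 and BOD1 in 2. Of the 37 genes in which the 3 lines lay below all others, 6 (16.2%) came from this stretch, which holds 0.549% of the genes tested.

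HIGD2A, a small mitochondrial protein of the respiratory chain, read 2459 in CCRF-CEM, 2343 in MOLT-16 and 2365 in PEER, against 2908 to 6579 with a median of 4813. The 3 values were nearly equal and all below LOUCY, the lowest of the others. The difference was -0.999 (SE 0.19, limma adjusted p = 0.0576), and both of 2 probe sets separated the groups. FAF2, a factor of protein degradation at the endoplasmic reticulum, was 886 in CCRF-CEM, 651 in MOLT-16 and 731 in PEER against 909 to 1585 (difference -0.82, limma adjusted p = 0.0569). HNRNPAB, an RNA-binding protein, was 6604, 7246 and 6105 in the same order against 7668 to 10881 (difference -0.51, limma adjusted p = 0.0718). For FAF2 and HNRNPAB, too, LOUCY was the lowest of the other lines.

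MAML1, a coactivator of NOTCH receptors, was 864 in CCRF-CEM, 399 in MOLT-16 and 1031 in PEER, against 981 to 2249 with a median of 1654. LOUCY (981) lay below PEER, and the difference of -1.21 (SE 0.24) had a limma adjusted p of 0.0718. LMAN2, a lectin of the secretory pathway, was 820.0 in CCRF-CEM, 692 in MOLT-16 and 574 in PEER against 884 to 2129 (difference -0.98, limma adjusted p = 0.0979). BOD1, a protein of chromosome alignment at mitosis and the tested gene nearest to NKX2-5 on this side, was 462 in CCRF-CEM, 532 in MOLT-16 and 565 in PEER. It ran from 540 to 1224 in the others, so only LOUCY overlapped (difference -0.83, limma adjusted p = 0.188). RGS14, a regulator of G-protein signalling, and CLTB, a clathrin light chain, completed the 6 genes without overlap. RNF130, a ubiquitin ligase, had the widest difference of the stretch: it was 14.01 in CCRF-CEM, 13.6 in MOLT-16 and 6.93 in PEER, against 2.10 to 4455 with a median of 1542 (difference -5.06, limma adjusted p = 0.394). RNF130 and RGS14 were singled out after their values were seen, as were COA8, HSP90AA1 and TECPR2 on chromosome 14.

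The genes on the other side of NKX2-5 did not share the low values. The same number of tested genes on the other side, from SYNPO to BNIP1, had a median difference of 0.05, with 32 genes below 0 and 41 above. BNIP1, which ends that side, was 508 in CCRF-CEM, 500.1 in MOLT-16 and 451 in PEER against 281 to 544 with a median of 480.4. NPM1, the abundant nucleolar protein further along, was 13796, 13601 and 15376 against 13530 to 16433. Both lay within the range of the others. By line, the median distance of the 73 genes from the median of the 13 other lines was -0.37 for MOLT-16, -0.55 for PEER and -0.70 for CCRF-CEM. LOUCY, which has no NKX2-5, was at -0.50, and the remaining 12 lines lay between -0.12 and 0.27. LOUCY, however, also read lowest of the others before NKX2-5 (-0.24), where CCRF-CEM, MOLT-16 and PEER were at 0.00, 0.03 and 0.05. Among the 50 genes of the stretch whose mean was above 4 times the table median, the median difference was -0.77 and 46 were below 0. The median of all 73 stayed between -0.63 and -0.49 when any single line was left out.

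**Figure D4:**
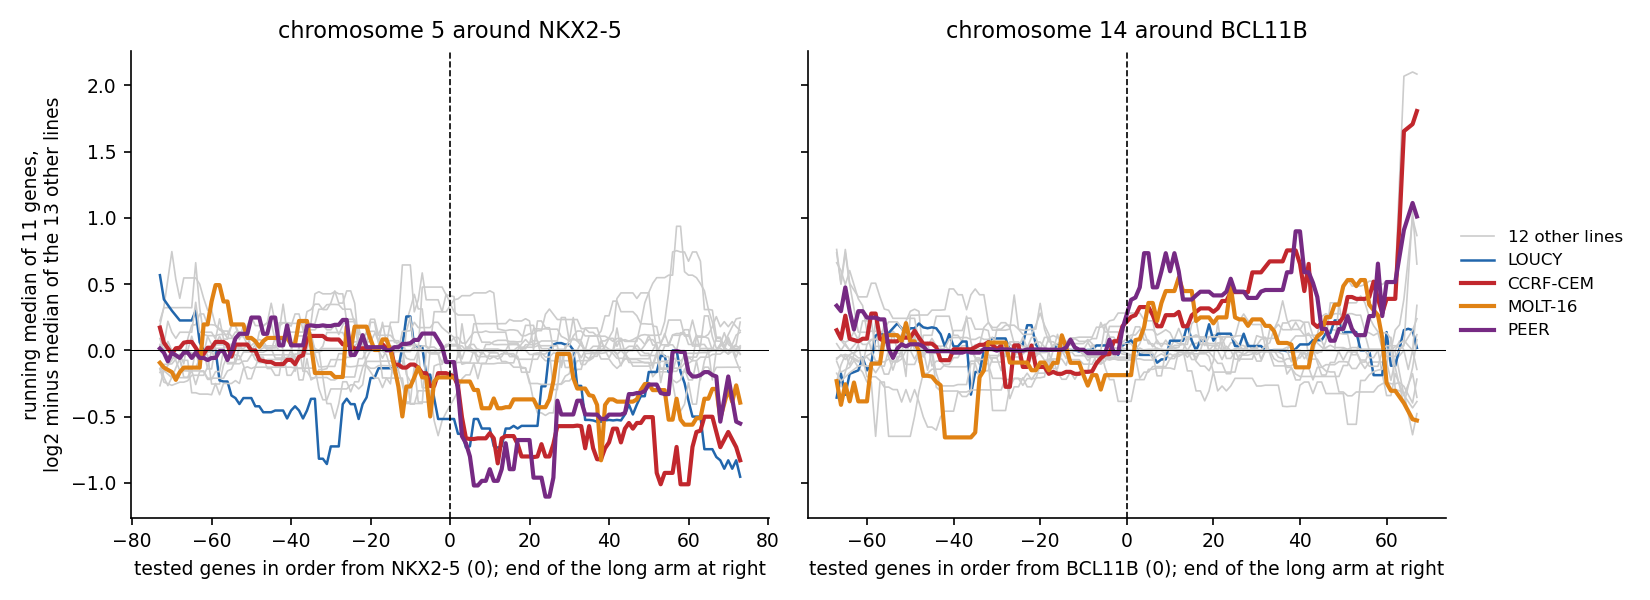
Running median over 11 neighbouring tested genes of each line's log2(intensity + 16) minus the median of the 13 other lines, in gene order around NKX2-5 (left) and BCL11B (right); position 0 is the gene named and the right edge the end of the long arm. At left CCRF-CEM, PEER and MOLT-16 run near 0 before NKX2-5 and below it afterwards, as does LOUCY, which is low before it too; at right CCRF-CEM, PEER and, less evenly, MOLT-16 run above 0 after BCL11B.

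On chromosome 14, the genes from BCL11B to the end of the long arm read high together. Of 67 tested genes from SETD3 to IGHV7-81, 52 (77.61%) had a difference above 0, and the median was 0.36. All 3 lines lay above the median of the others in 35 genes and below it in 1. In 18 genes (26.9%) the unadjusted p was below 0.05 in the higher direction, against 3.11% of all genes tested, in 1 gene, COA8, in the lower direction, and none was called. Of the 38 genes in which the 3 lines lay above all others, 6 (15.8%) came from this stretch, which holds 0.504% of the genes tested. They were CINP, YY1, TRMT61A, WDR25, HSP90AA1 and TECPR2. The same number of genes before BCL11B had a median of -0.07. This stretch was also picked with its values known.

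CINP, a protein of DNA replication and the damage checkpoint, was 1463 in CCRF-CEM, 1482 in MOLT-16 and 1354 in PEER, against 697 to 1202 with a median of 866. The 3 values were close together and above KOPT-K1, the highest of the others. The difference was 0.69 (SE 0.14, limma adjusted p = 0.0718). YY1, a zinc finger factor of enhancers and promoters, was 7967, 7175 and 8280.1 in the same order, against 5788 to 7123 (difference 0.29, limma adjusted p = 0.183). Of 6 YY1 probe sets 1 separated the groups, and of 3 CINP probe sets 1. CINP passed the threshold in 2 of 28 alternatives, without KOPT-K1 (limma adjusted p = 0.0403) and with the mean of all probe sets (0.0164). As KOPT-K1 was the highest of the others, leaving it out widens the difference by construction. For YY1 the value of MOLT-16 lay just above the highest of the others, HSB-2. TRMT61A, a tRNA methyltransferase, was 699 in CCRF-CEM, 653 in MOLT-16 and 578 in PEER against 219 to 517.

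Of genes close to BCL11B, SETD3, an actin histidine methyltransferase, was 1983 in CCRF-CEM, 2283 in MOLT-16 and 1821 in PEER against 894 to 2189 with a median of 1377. LOUCY (2189) overlapped. CCNK, the cyclin of the kinases CDK12 and CDK13, was 3160 in CCRF-CEM, 2515 in MOLT-16 and 3319.95 in PEER against 2041 to 2823. For CCNK the values of CCRF-CEM and PEER were above all others and that of MOLT-16 was not. BCL11B itself, a factor of T-lineage commitment, was 5546 in CCRF-CEM and 5280.1 in PEER, near the others' median of 5474, and 1040.4 in MOLT-16. With a range of 300.2 in DU528 to 6832 in SKW-3, the others enclosed all 3.

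By line the median of the 67 genes was 0.46 in PEER, 0.40 in CCRF-CEM and 0.20 in MOLT-16. The others lay between -0.21 in P12-ICHIKAWA and 0.22 in TALL-1, so that MOLT-16 was not above them all. Among the 33 genes with a mean above 4 times the table median, which leave out the immunoglobulin genes at the chromosome end, the median difference was 0.42 and 30 were above 0. Leaving out single lines gave medians of 0.30 to 0.43 for the 67 genes. In 1223 overlapping windows of 50 neighbouring genes over all chromosomes, the 4 lowest median differences (-0.59 to -0.56) came from the end of chromosome 5 and the 3 highest (0.33 to 0.40) from the end of chromosome 14, while 96.57% of windows lay within 0.2 of 0. The next lowest windows, on chromosome 4 from TMEM128 to NCAPG (-0.43), were low in PEER (-0.81), less so in MOLT-16 (-0.33) and near 0 in CCRF-CEM (-0.03). The part of DNA copy number in these stretches was not tested, since no DNA was measured.

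**Figure D5:**
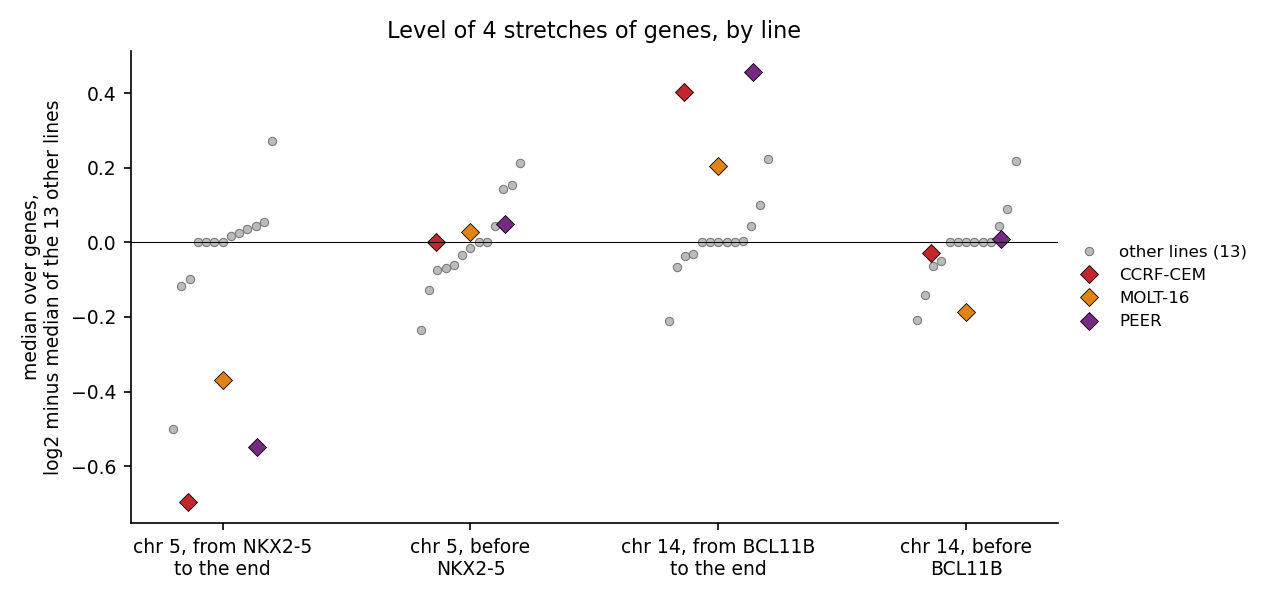
Median over the tested genes of 4 stretches of each line's log2(intensity + 16) minus the median of the 13 other lines; diamonds are CCRF-CEM, MOLT-16 and PEER and grey points the other lines, which sit near 0 by construction. CCRF-CEM, PEER and MOLT-16 are at -0.70, -0.55 and -0.37 beyond NKX2-5, with 1 grey point (LOUCY) at -0.50, and at 0.40, 0.46 and 0.20 beyond BCL11B.

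The neighbours of NKX2-5 in band 5q35 were also in a list by name, on both sides of the gene. This list and that around BCL11B were chosen with earlier results known. Both share genes with the stretches above, so they are no separate support. Of 26 measured, 20 were tested, of which 14 were below 0, with a median of -0.23 (-0.10 without MOLT-16, -0.32 without PEER) and 3 at an unadjusted p below 0.05: BOD1, SFXN1 and HRH2, all on the side towards the end of the arm. These 3 belong to the stretch described above. Over all genes tested 3.48% were lower at such a p. SFXN1, a mitochondrial serine transporter, was 749.5 in CCRF-CEM, 1067 in MOLT-16 and 555 in PEER against 941 to 2188 (difference -0.70, limma adjusted p = 0.523). ERGIC1, a protein of the early secretory pathway on the side towards the centromere, was 3551, 2036 and 4098 in the same order against 984 to 3768, with a difference of 0.79 that missed the threshold (limma adjusted p = 0.79). In the list around BCL11B, 12 of 16 measured genes were tested, 5 were higher at an unadjusted p below 0.05 (SETD3, CCNK, YY1, WARS1 and WDR25) and 0 lower. All 5 belong to the stretch beyond BCL11B, and over all genes tested 3.11% were higher at such a p. By sign 7 of the 12 were above 0 and 5 below, with a median of 0.04 that ran from -0.0013 without JURKAT to 0.38 without MOLT-16. WARS1, the tryptophanyl-tRNA synthetase, was 1654, 1842 and 1924 against 751 to 2108.

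Most heart genes that NKX2-5 controls in heart muscle were dim in all of the T-ALL lines. Of 24 measured cardiac target genes, 18 did not reach 4 times the table median (42.4) in any line. The natriuretic peptide gene NPPA was 13.15 in CCRF-CEM, 31.6 in MOLT-16 and 21.05 in PEER, and cardiac actin ACTC1 was 29.1, 20.3 and 38.0. Only 8 of the targets could be tested; 4 were above 0 and 4 below, with a median of -0.02 (-0.14 without ALL-SIL, 0.08 without SUP-T11), none was called and 0 had an unadjusted p below 0.05. TNNI3, cardiac troponin I, was 92.6 in CCRF-CEM, 184 in MOLT-16 and 192 in PEER, but DU528 reached 198 (difference 0.56, limma adjusted p = 0.792). CALR, a calcium-binding chaperone and a listed target that every cell uses, was 6809, 8946 and 7463 against 3571 to 7898. Of 8 measured heart muscle markers, 1 (TNNI3) passed the filter on low genes.

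Partner factors of NKX2-5 in the heart were also low. Of 13 measured, 10 did not reach 4 times the table median in any line, among them GATA4 at 30.4 in CCRF-CEM, 47.7 in MOLT-16 and 22.7 in PEER, against 22.3 to 62.0. TBX5, a T-box factor, was 23.98, 37.4 and 20.9 in the same order. Of 5 partners tested 0 had an unadjusted p below 0.05. SRF, a factor used in most cells, was present at 643 in CCRF-CEM, 761 in MOLT-16 and 552 in PEER, within the range of the others (494 to 959). Of 7 other NK homeobox genes measured, 6 stayed below 4 times the table median in every line, the exception being NKX3-2. Of the 3 tested, NKX2-1, NKX3-2 and NKX6-2, 0 were called by limma and 0 had an unadjusted p below 0.05.

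MEF2 factors, partners of NKX2-5 in the heart, differed among the 3 lines. MEF2C, which marks an immature class of T-ALL, was 500.3 in MOLT-16, 54.4 in CCRF-CEM and 10.98 in PEER, against 7.89 to 4433 with a median of 12.2. Of the 3 lines MEF2C was therefore highest in MOLT-16, dim but above the others' median in CCRF-CEM, and below that median in PEER. MOLT-16 itself lay far below LOUCY (4433). MEF2D was 425 in CCRF-CEM, 172 in MOLT-16 and 502 in PEER, against 293 to 1139 with a median of 642, and MEF2A was 868, 493 and 618 against 419 to 2612. Both differences were below 0 (-0.78 for MEF2D, limma adjusted p = 0.753; -0.69 for MEF2A, limma adjusted p = 0.795). Of the 7 tested genes of the list of MEF2 factors and class II deacetylases 5 were below 0, and the median was -0.54 (-0.90 without CCRF-CEM, -0.36 without MOLT-16).

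Among genes of early thymocytes, HHEX, a homeobox factor of progenitors, was 1132 in CCRF-CEM, 599.9 in MOLT-16 and 2187 in PEER, against 6 to 3370 with a median of 17.2. All 3 lines expressed it. LOUCY (3370) lay above all of them and DU528 (2135) above CCRF-CEM and MOLT-16, and the difference of 3.74 (SE 1.49) had a limma adjusted p of 0.683. LYL1, a relative of TAL1, was 622 in CCRF-CEM, 1085 in MOLT-16 and 1652 in PEER, against 79.9 to 3655 with a median of 123 (difference 1.97, limma adjusted p = 0.781). The 3 lines thus sat in the upper part of a wide range for both genes. Of the 11 immature genes tested 7 were above 0 with a median of 0.83, and HHEX alone had an unadjusted p below 0.05. That median ran from 0.56 without PEER to 1.26 without LOUCY, and with a pseudocount of 1 in place of 16 it turned to -0.20. Of the T-ALL transcription factors, 7 of 15 measured were tested, all 7 were above 0 and the median was 0.83 (1.64 without PEER, 0.385 without MOLT-16), but 0 had an unadjusted p below 0.05. Both lists hold LYL1, LMO2, MEF2C and SPI1. The median of 0.83 in each is the difference of MEF2C, which was highest in MOLT-16 among the 3, so these are not separate shifts. MYB was 8873, 11422 and 9862 against 230.2 to 10335, and MYC was 5878, 9553 and 4026 against 23.6 to 9134.

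In BMP signalling, a pathway that acts on NKX2-5 in heart formation, 14 of 19 measured genes were tested, 7 above 0 and 7 below. The ligand BMP4 was at background, at 4.31 in CCRF-CEM, 3.49 in MOLT-16 and 8.23 in PEER, but it was also low in many other lines (1.12 to 1039, median 57.5). The mediator SMAD1 was 883 in CCRF-CEM, 10.75 in MOLT-16 and 1996 in PEER, a spread nearly as wide as that of the others (8.15 to 2212). HHEX was again the member at an unadjusted p below 0.05.

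Stage markers of the thymus set the 3 lines apart from each other. CD1B, a surface molecule of cortical thymocytes, was 1064 in CCRF-CEM, 3.27 in MOLT-16 and 6.29 in PEER. The others ran from 1.54 to 9328. RAG1, part of the recombinase of receptor genes, was 3415 in CCRF-CEM, 881 in MOLT-16 and 15.9 in PEER, and DNTT, the polymerase that adds bases at receptor gene joints, was 4421, 40.5 and 13597. CCRF-CEM thus expressed all 3 of these genes, PEER DNTT alone and MOLT-16 RAG1 alone. Over the 12 cortical genes the mean log2(intensity + 16) ran from 5.997 to 10.1 among the 3 lines and from 5.18 to 9.90 among the others. CD4 was the member at an unadjusted p below 0.05, at 244 in CCRF-CEM, 71.7 in MOLT-16 and 36.9 in PEER against 23.8 to 92.2.

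Genes of the T-cell receptor complex read low mainly in MOLT-16. Of 10 tested, 8 were below 0, the median was -0.62 (0.0279 without MOLT-16), and 3 had an unadjusted p below 0.05 in the lower direction: CD3E, CD247 and LAT. Such a p in that direction was met by 3.48% of all genes tested. CD3E, a receptor chain, was 332 in CCRF-CEM and 325 in PEER, next to the others' median of 323, and 31.1 in MOLT-16. Its log2 difference of -0.88 turned to 0.0762 without MOLT-16. LCK, the kinase that starts receptor signals, was 7128 and 6044 in CCRF-CEM and PEER and 942 in MOLT-16, against 2679 to 14199. CD247, the zeta chain, was 1851 in CCRF-CEM, 589 in MOLT-16 and 1388 in PEER against 1154 to 4943. As these are bulk cultures, fewer cells with a transcript and less of it per cell cannot be told apart.

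In the NOTCH1 pathway, which most T-ALL activates, 13 genes were tested, 9 above 0, with a median of 0.65 and 0 at an unadjusted p below 0.05. The median fell to 0.29 without CCRF-CEM and to 0.16 without LOUCY. HES1, its direct target, was 1342 in CCRF-CEM, 699 in MOLT-16 and 3327 in PEER, against 15.99 to 1783 with a median of 489; PEER was the highest of all 16 lines. Of 13 JAK-STAT genes 9 were below 0, and JAK1 was the member at an unadjusted p below 0.05, with 186 in MOLT-16 against 1499 in CCRF-CEM and 2005 in PEER. Of 11 apoptosis genes 9 were below 0, with a median of -0.07 (-0.17 without MOLT-16); BCL2L11, the death activator BIM, was 206 in CCRF-CEM, 570.1 in MOLT-16 and 391 in PEER, against 312 to 1913 with a median of 894 (limma adjusted p = 0.757). Proliferation genes had a median of 0.01. CCNB1, a mitotic cyclin on chromosome 5, was 4757, 4918 and 4517 in CCRF-CEM, MOLT-16 and PEER against 2214 to 4949 (difference 0.52, limma adjusted p = 0.528).

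The remaining lists also held 0 called genes; over all 26 lists, 208 of 311 genes were tested. The median difference was 0.06 for 15 T-lineage factors, -0.27 for 11 surface antigens, -0.34 for 7 cell cycle inhibitors and 0.17 for 3 regulators named for the BCL11B enhancer. Each of these 4 medians moved with single lines: from -0.0887 without PEER to 0.45 without MOLT-16 for T-lineage factors, from -0.73 without CCRF-CEM to 0.47 without MOLT-16 for surface antigens, from -0.58 without CCRF-CEM to -0.0546 without PEER for cell cycle inhibitors and from -0.0887 without PEER to 0.55 without MOLT-16 for the enhancer regulators. Among surface antigens CD27 was the member at an unadjusted p below 0.05 (179 in CCRF-CEM, 136 in MOLT-16 and 96.3 in PEER against 52.3 to 194). The 10 housekeeping genes had a median of 0.01.

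The list means of the 3 lines lay within the others' range for markers of other cells, save heart muscle markers, which reached slightly above it. Of the 8 heart muscle markers measured, however, 6 did not reach 4 times the table median in any line. TNNI3 alone was tested, and it was not called. The mean log2(intensity + 16) of 7 myeloid markers was 5.02 to 5.24 in the 3 lines and 4.99 to 5.67 in the others, with MPO, their defining enzyme, at 7.18, 18.2 and 5.14 in CCRF-CEM, MOLT-16 and PEER. For 8 heart muscle markers it was 5.29 to 5.66 against 5.17 to 5.53, for 8 stromal and endothelial markers 6.03 to 6.26 against 5.43 to 6.53, for 5 erythroid and megakaryocyte markers 5.49 to 5.82 against 5.30 to 6.52, and for 7 cytotoxic and NK markers 5.71 to 6.94 against 5.21 to 8.74. The 7 B-cell markers lay at 6.07 to 6.50 against 5.74 to 7.32, and the defining B-cell gene MS4A1 was at 29.5, 18.3 and 12.4. CD79B, a B-cell receptor chain, was nevertheless 192 in CCRF-CEM, 200.1 in MOLT-16 and 568 in PEER, against 6.92 to 1152 with a median of 29.1. LOUCY held the 1152, and the next of the others was SUP-T11 at 90.1 (difference 2.33, limma adjusted p = 0.597). Without LOUCY CD79B passed the threshold (limma adjusted p = 0.0316), but leaving out the highest of the others widens the difference by construction. SPARC, a matrix protein, was 196, 967 and 302 against 7.97 to 2592 with a median of 20.2, again with LOUCY highest (difference 2.34, limma adjusted p = 0.795).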

How the data were processed

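Total RNA of 16 T-ALL lines was hybridised to 1 array per line. The values the authors deposited are linear intensities per probe set; the software and scaling were not given in the sources used here, and they were not normalized further. Precision is limited by the number of arrays. Of 54675 probe sets, 41091 were listed with 1 gene, 1801 with several and 11721 were unlisted, and 62 were controls. Each of 19740 genes was represented by its probe set of highest mean. Genes were tested where their 3rd highest line lay above the table median of 42.4, on log2(intensity + 16), with R 4.3.3 and limma 3.58.1 (eBayes with trend and robust) and with Benjamini-Hochberg adjustment over 13293 genes. NKX2-5 and 35 sex-linked genes were left out. Other steps used scipy 1.17.1, pandas 2.3.3, numpy 2.4.6 and matplotlib 3.10.9 in Python 3.11.15. The limma script was tested on simulated data. The lines, gene lists and alternatives were chosen with earlier results of these data known, and both chromosome stretches after their values were seen. A gene was named where it was among the 20 smallest p-values or the 20 widest gaps between groups in a direction, in the NK, cardiac, MEF2, 5q35, 14q32 or enhancer lists, or among the 6 largest differences of another list; others named in the lists or stretches were singled out after their values were seen. Alternatives were other scaling, pseudocounts (64 and 1), filters, probe set choices, moderation, covariates, the permutation test and leaving out each line.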

Additional observations from a re-analysis of the deposited data

How the results depend on the processing

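The count of higher genes was 5 with quantile normalization, 7 with a pseudocount of 64, 5 with no filter on low genes, 1 with a filter on the mean over all lines, 9 with the probe set of highest SD, 10 with the mean of all probe sets, 5 with the ACTB ratio as a covariate and 0 in the exact permutation test per gene (smallest adjusted p 0.50, 408 higher and 456 lower genes at an unadjusted p below 0.05). The count of lower genes was 0 in that permutation test and within 1.5 times the reported 5 in the other alternatives that kept all lines. The permutation test could call no single gene by itself, its smallest p being set by the number of lines. Leaving out single lines gave 3 to 11 higher and 2 to 16 lower genes, 40 to 197 genes with the 3 lines above all others and 38 to 180 below all others. A group of 2 lines separates more easily by construction. So does a group of 3 once the nearest of the other lines is left out, and a gene that passed only in this way gained no support. The alternatives for the chromosome stretches were added after seeing the data. Leaving out single lines gave medians of -0.63 to -0.49 beyond NKX2-5, 0.0118 to 0.0746 before it, 0.30 to 0.43 beyond BCL11B and -0.10 to 0.00 before it. The median before NKX2-5 was 0.0826 with quantile normalization and 0.0186 with TAL1 status as a covariate; the cause was not tested. Of 78 genes followed through the alternatives, CD3E changed direction in 1 alternative, without MOLT-16, with -1.37 to 0.0762 over the lines left out. Genes named here outside these 78 were not followed, so their directions are not shown to be stable. No paired analysis was possible because the labels give no replicate numbers that pair lines. Signal near background limits what can be said of genes that are dim in a group, such as PC, DACH1, GPD1L and the cardiac genes.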
